A study of Danio rerio with 6 samples.

Results

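The genes described here build the membrane of the red blood cell and carry its growth signal: the anion exchanger *slc4a1a*, the skeleton genes *epb41b*, *sptb*, *ank1a*, *add2* and *dmtn*, the ammonia channel gene *rhag* and the erythropoietin receptor gene *epor*. They were chosen as a list of 8 names, and their rows were taken from a table of 32105 genes by matching symbols to Ensembl gene IDs. A single ID was found for 7 of the 8. For *ank1a*, the symbol ANK1 was attached to 2 IDs, ENSDARG00000059093 and ENSDARG00000074777, and which of them is *ank1a* was not settled, so both are given by ID and neither is counted among the 7.

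RNA-seq was carried out on 3 zebrafish homozygous for the *ikzf1* allele fr105 (replicates 1 to 3) and on 3 wild-type siblings (replicates 4 to 6), all labelled as whole body at 5 dpf on a mixed wild-type strain background. The fr105 allele is a CRISPR deletion within *ikzf1*, the gene of the transcription factor Ikaros. Its predicted protein loses most of the zinc fingers that bind DNA and all C-terminal zinc fingers, which bind other proteins. According to the methods, each library came from an individual fish, genotyped from the same extract. The comparison asks whether loss of *ikzf1* function alters red cell genes.

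The red cell membrane is held by a protein network on its inner face, in which spectrin strands are tied together at junctions and anchored through ankyrin and protein 4.1 to transmembrane proteins such as band 3. The network gives the cell its shape and lets it deform in narrow vessels. Erythropoietin, made outside the blood lineage, binds its receptor on red cell progenitors and signals through Jak2 and Stat5, which keeps these progenitors alive. In vertebrates, inherited defects of band 3, spectrin or ankyrin cause fragile red cells and anaemia, and in zebrafish band 3 and beta-spectrin are known from such mutants.

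The total count ranged from 34759504 to 39404324 per library. Defining markers of whole larvae were nearly absent: no gene of the 6 matched muscle markers of 10 listed, the 4 of 8 lens markers and the 3 of 7 neuron markers had more than 8 counts in any library, and *elavl3*, *crygm2d1* and *crygm2d2* were at 0 in all 6. The 3 matched adult globin genes of 4 listed summed to between 10320 and 27105 CPM (counts scaled to a common library size). The 6 matched larval globin genes of 10 listed summed to at most 7.78 CPM. The larval genes *hbbe1.1*, *hbbe1.2*, *hbbe1.3* and *hbbe2* had no single ID and are not in this sum. The label is kept as given, but these values are at odds with a whole larva. Neither the tissue that was sequenced nor the age of the fish is established by them. In bulk RNA, more red cells and more RNA per red cell cannot be told apart.

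All 7 genes were abundant in every library, and all 7 passed the filter on low counts. Together they took 0.535%, 0.504% and 0.663% of the counts of mutant replicates 1, 2 and 3. Their share was 0.521%, 0.266% and 0.389% for wild-type replicates 4, 5 and 6. Thus the lowest mutant share lay below the highest wild-type share. Each of the 7 had a higher estimate in mutants, with log2 fold changes (mutant over wild type, here the log2 ratio) from 0.33 to 0.85 and a median of 0.54. None reached the threshold, an adjusted p of 0.05 by the quasi-likelihood test of edgeR, against 11.0% of all 16630 genes tested that were called higher, 8.76% called lower and 19.8% in either direction. At an unadjusted p under 0.05 there were 5 of the 7, as there were 5937 of all 16630 genes. DESeq2 called 2 of the 7, *epb41b* and *add2*, where its background was 11.7%. The mutant and wild-type values did not overlap for 5 of the 7, a pattern that 21.3% of all genes tested showed with mutants higher.

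**Figure D1:**
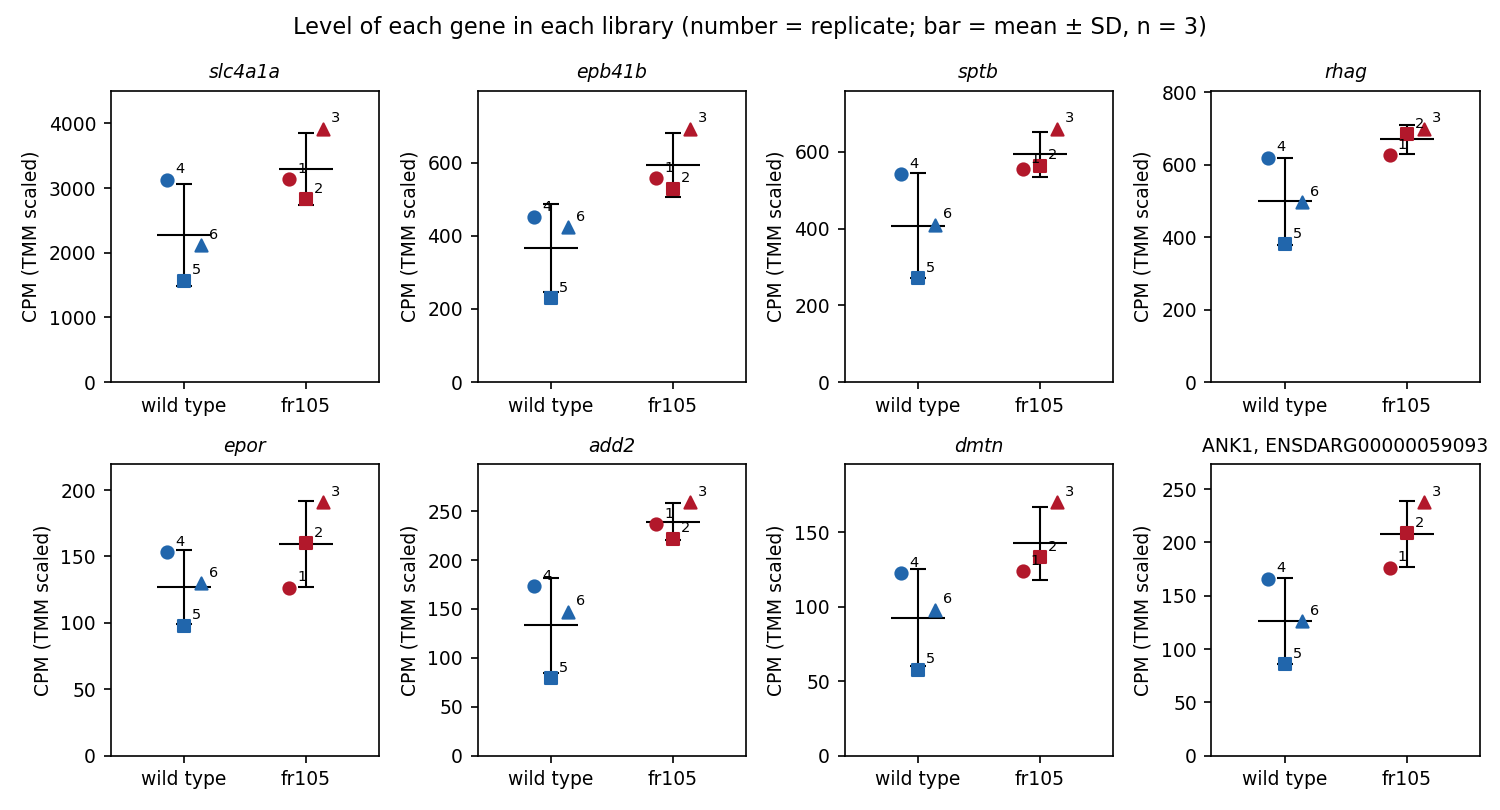
Level of 7 red cell membrane and receptor genes and of 1 of the 2 genes named ANK1, in CPM after TMM scaling (vertical axes, from 0), in 3 wild-type and 3 fr105 libraries; numbers name the replicate, and bars give mean ± SD. In each of the 7 named genes wild-type replicate 5 is lowest and mutant replicate 3 is highest, and in *slc4a1a* and *epor* the groups overlap.

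The transport proteins of the membrane come first. *slc4a1a* (ENSDARG00000012881) encodes band 3, the chloride and bicarbonate exchanger that also anchors the skeleton. Mutant replicates 1, 2 and 3 held 120173, 101805 and 136969 counts of it, and the siblings, replicates 4, 5 and 6, held 119859, 60408 and 84869. Wild-type replicate 4 fell among the mutants, and wild-type replicate 5 was far below every other library. After scaling, *slc4a1a* was at 3296 ± 561 CPM in the mutants against 2272 ± 793 CPM in the siblings (mean ± SD of 3), a log2 ratio of 0.54 (95% interval -0.04 to 1.11, adjusted p = 0.163 in edgeR). The groups overlapped, and an exact two-sided permutation test of the difference in mean log2(CPM + 0.5) gave p = 0.2.

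*rhag* (ENSDARG00000019253) encodes the Rh-associated glycoprotein, which in mammals moves ammonia and carries the Rh complex. It had 23965, 24622 and 24468 counts in the mutants against 23741, 14692 and 19891 in the siblings. The mutant libraries were close together, with the smallest spread of the 7 genes, a coefficient of variation of 5.85% against 23.9% in wild type. The level of *rhag* was 670 ± 39.2 CPM in the mutants against 499 ± 119 CPM in the siblings (mean ± SD of 3). Its log2 ratio was 0.42 (95% interval 0.02 to 0.83, adjusted p = 0.122 in edgeR). The scaled values of *rhag* did not overlap, but mutant replicate 1, at 626 CPM, was barely above wild-type replicate 4, at 620 CPM. *rhd* (ENSDARG00000002194), a related Rh gene from the list of relatives, had 3013, 3160 and 3834 counts in the mutants against 3421, 1557 and 2540 in the siblings. Its log2 ratio of 0.52 did not pass the threshold (adjusted p = 0.202 in edgeR). The adjusted p of *rhd* with 1 library left out ran from 0.0449, without wild-type replicate 4, to 0.438.

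Among the skeleton genes, *sptb* (ENSDARG00000030490) encodes beta-spectrin, a strand of the network itself. Its counts were 21244, 20272 and 23070 in the mutants against 20752, 10416 and 16438 in the siblings. Mutant replicate 1, the lowest mutant library, was at 555 CPM, and wild-type replicate 4 at 542 CPM. The gap between the groups was thus narrow beside the range within wild type. *sptb* had a log2 ratio of 0.54 (95% interval 0.01 to 1.07, adjusted p = 0.135 in edgeR), with 593 ± 58.5 CPM in the mutants against 408 ± 136 CPM in the siblings (mean ± SD of 3).

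*epb41b* (ENSDARG00000029019) encodes protein 4.1, which strengthens the contact of spectrin with actin and with the membrane. It had 21352, 19027 and 24220 counts in the mutants against 17241, 8835 and 16962 in the siblings. Every mutant library lay above every wild-type library. *epb41b* was at 593 ± 87.7 CPM in the mutants against 368 ± 121 CPM in the siblings (mean ± SD of 3), a log2 ratio of 0.69 (95% interval 0.12 to 1.26, adjusted p = 0.0852 in edgeR). DESeq2 gave an adjusted p of 0.0214, so the call for *epb41b* depended on the tool. With all 6 libraries kept, other settings gave it adjusted p-values between 0.0214 and 0.0981.

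*add2* (ENSDARG00000074581) encodes beta-adducin, which caps actin filaments at the junctions and recruits spectrin to them. Its counts were 9062, 7977 and 9059 in the mutants against 6622, 3040 and 5907 in the siblings. Of the 7 genes it had the highest fold change, with the 3 mutant libraries at 222 to 259 CPM and the 3 wild-type libraries at 78.9 to 173 CPM. The log2 ratio was 0.85 (95% interval 0.26 to 1.44), a 1.8-fold difference, with an adjusted p of 0.0524 in edgeR and 0.00485 with DESeq2. *add2* thus lay just outside the threshold, and with all 6 libraries kept, other settings gave adjusted p-values between 0.00485 and 0.0589.

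*dmtn* (ENSDARG00000013110) encodes dematin, an actin-bundling protein of the same junctions. It was counted 4745, 4794 and 5944 times in the mutants against 4678, 2221 and 3931 times in the siblings. Mutant replicate 1, at 124 CPM, was barely above wild-type replicate 4, at 122 CPM. The log2 ratio of *dmtn* was 0.62 (95% interval 0.03 to 1.21, adjusted p = 0.125 in edgeR; 0.0566 with DESeq2).

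The 2 genes with the symbol ANK1 differed widely in counts. Ankyrin links spectrin to band 3. ENSDARG00000059093 had 6755, 7513 and 8309 counts in the mutants against 6356, 3293 and 5054 in the siblings, with wild-type replicate 5 again lowest. Its log2 ratio was 0.72 (95% interval 0.19 to 1.25, adjusted p = 0.0612 in edgeR and 0.0111 with DESeq2). In edgeR the adjusted p was 0.0189 without wild-type replicate 4 and 0.172 without mutant replicate 3. With all 6 libraries and no low-count filter it was 0.04825 in edgeR. ENSDARG00000074777 had 0, 4 and 0 counts in the mutants against 12, 0 and 0 in the siblings, and was removed by the filter.

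*epor* (ENSDARG00000090834) encodes the erythropoietin receptor. It had 4847, 5759 and 6672 counts in the mutants against 5860, 3769 and 5215 in the siblings. Mutant replicate 1, at 127 CPM, was below wild-type replicates 4 and 6, at 153 and 130.1 CPM. Of the 7 genes it had the lowest fold change: 159 ± 32.2 CPM in the mutants against 127 ± 27.8 CPM in the siblings (mean ± SD of 3), a log2 ratio of 0.33 (95% interval -0.13 to 0.78). *epor* did not pass the threshold with edgeR (adjusted p = 0.274) or DESeq2 (adjusted p = 0.273), and its overlapping groups gave p = 0.3 in an exact two-sided permutation test. The interval still includes a rise of 0.78 on the log2 scale.

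The libraries differed in the same way for gene after gene. Wild-type replicate 5 was the lowest and mutant replicate 3 the highest of the 6 libraries in all 7 genes, which 7.36% of all genes tested also showed. Within wild type, replicate 4 was above replicate 6 and replicate 6 above replicate 5 in 7 of 7 genes, against 17.7% of all genes tested. The coefficient of variation was 21.9% to 36.5% in wild type and 5.85% to 20.2% in mutants, larger in wild type for 7 of 7 genes (53.7% of all genes tested). These shares describe 1 set of libraries in which the 7 genes are not independent.

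**Figure D2:**
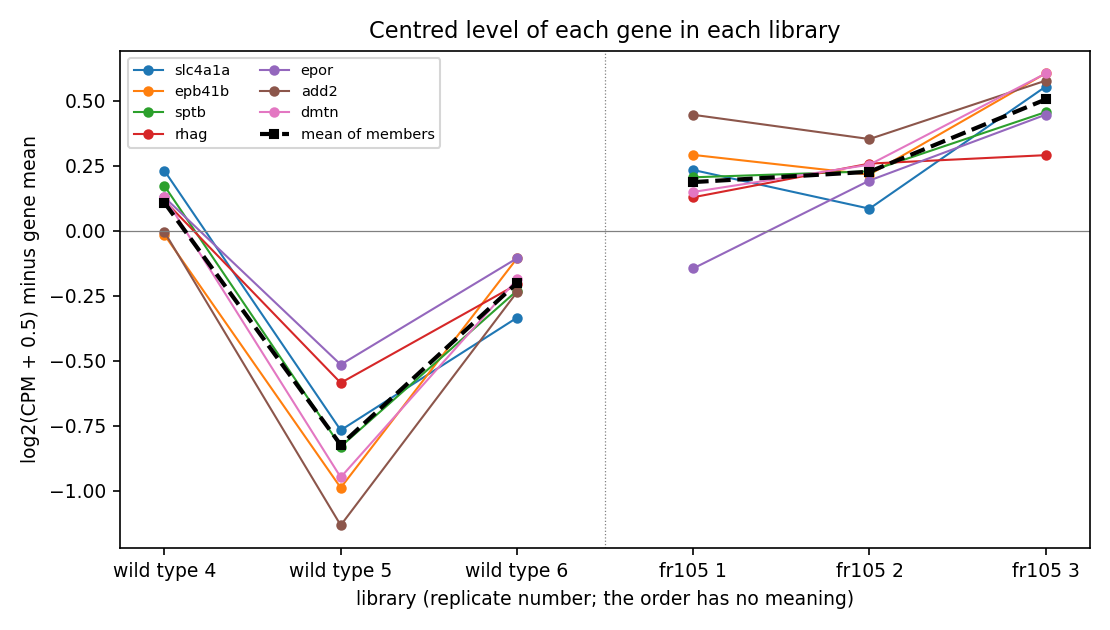
Level of each of the 7 genes in each library, as log2(CPM + 0.5) minus the mean of that gene over the 6 libraries; lines join the libraries of a group only to show which points belong to 1 gene. Wild-type replicate 5 lies 0.82 below the mean profile's centre and mutant replicate 3 lies 0.50 above it, while *epor* in mutant replicate 1 is below its own mean.

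The calls depended on single wild-type libraries. Without wild-type replicate 4, whose levels were nearest to those of the mutants, 4 of the 7 genes passed the threshold in edgeR's test: *slc4a1a* (adjusted p = 0.0283), *sptb* (0.0328), *rhag* (0.0327) and *add2* (0.0278). Without that library 9.37% of all genes tested were called higher. Without wild-type replicate 5, only *add2* passed (adjusted p = 0.0294; background 7.41%), and the median log2 ratio of the 7 genes was 0.33. Without mutant replicate 1, 2 or 3 or wild-type replicate 6, 0 of the 7 passed, where 6.85%, 8.98%, 6.96% and 9.35% of all genes tested were called higher.

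A reference list of 14 other erythroid genes, for globins, heme synthesis, iron uptake and transcription factors, gives the level of other red cell genes in the same libraries. Of these, 8 were called higher and 0 lower, beside 11.0% and 8.76% of all genes tested, with a median log2 ratio of 0.82, beside 0.54 for the 7 membrane and receptor genes and -0.0048 for all genes tested. Those called were *tfr1a*, the transferrin receptor (0.91), the globin *hbba1* (0.91), the transcription factors *gata1a* (0.90), *nfe2* (0.85) and *tal1* (0.73), the heme synthesis enzymes *urod* (0.86) and *uros* (0.71), and the biliverdin reductase gene *blvrb* (0.82). Only 2 of the 14 were called higher without mutant replicate 1, 2 or 3 or without wild-type replicate 6. In these runs 6.85% to 9.35% of all genes tested were called higher. Without wild-type replicate 4 or 5, 11 and 6 of the 14 were called higher, beside 9.37% and 7.41% of all genes tested. DESeq2 called 11 of the 14 higher, where its background was 11.7%. Wild-type replicate 5 was lowest in 13 of the 14, against 24.0% of all genes tested. The list was made with earlier results of these samples known, so the count is not independent evidence of a rise.

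**Figure D3:**
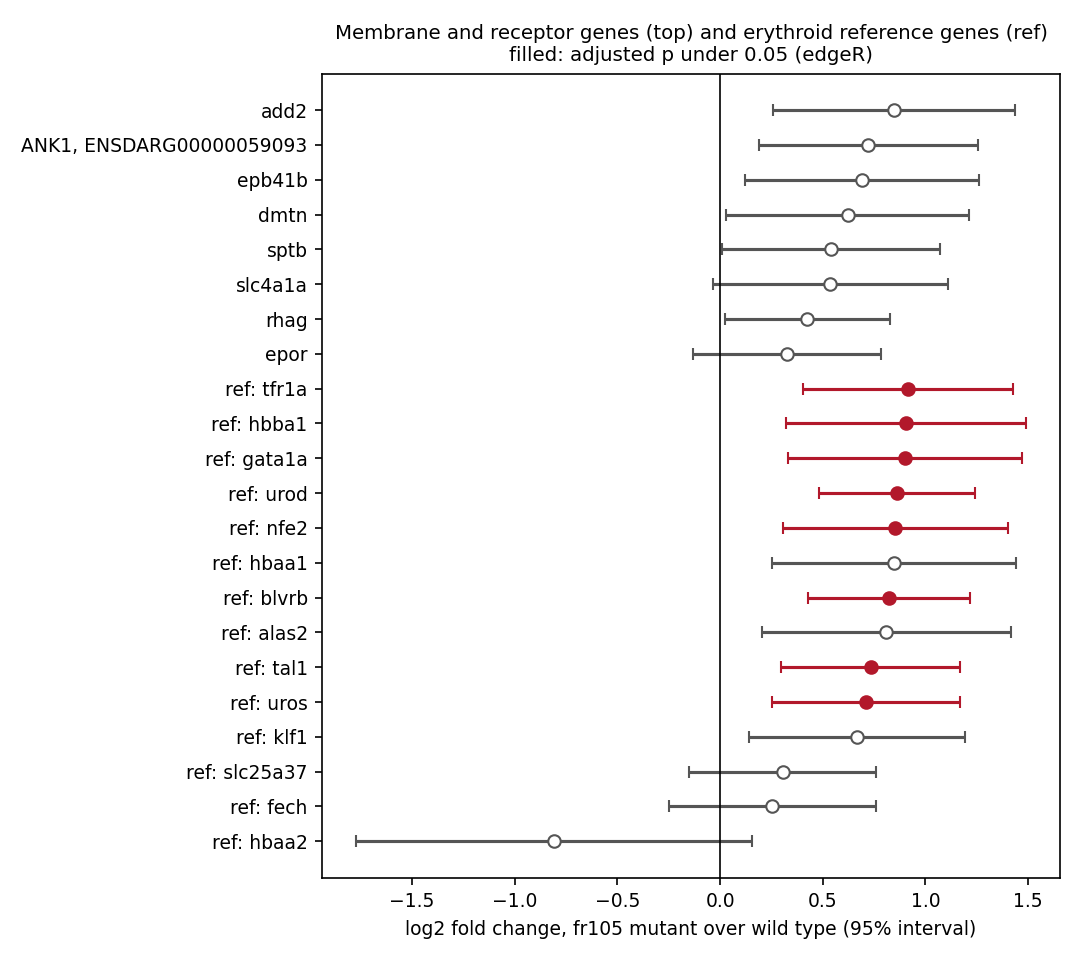
Log2 fold change of fr105 mutants over wild type with its 95% interval (horizontal axis) for the 7 genes and 1 ANK1 gene (top) and 14 erythroid reference genes (prefixed ref); filled points have an adjusted p under 0.05 in edgeR's test. No point of the upper group is filled, against 8 in the reference list, and the intervals of the 2 groups overlap widely.

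Within each library, the 7 genes together had 18.8, 20.6 and 21.3 counts for every 100 counts of the reference list in the mutants, against 19.4, 22.9 and 22.2 in the siblings. The groups overlapped in this ratio, while the share of the reference list itself ran from 1.16% of all counts in wild-type replicate 5 to 3.12% in mutant replicate 3. The reference sum was mostly adult globin, with 653758 of 1093827 counts from *hbaa1* in mutant replicate 1. The globin *hbaa2* had a log2 ratio of -0.81 and gave 284835 of 1023406 counts in wild-type replicate 4. The ratio thus mainly compares the 7 genes with globins, and whether it overlaps without *hbaa2* was not tested. To ask whether any of the 7 differed from the others, its counts were compared with the summed counts of the other members in the same library. *slc4a1a* gave 120173 of the 205388 summed counts in mutant replicate 1 and 119859 of 198753 in wild-type replicate 4. For every other gene, the comparison was therefore mostly with *slc4a1a*. *add2* was higher relative to the others in mutants, by 0.34 on the log2 scale, without overlap (p = 0.1 in an exact two-sided permutation test, which is as small as 3 against 3 allow; 0.7 after adjustment over the 7 tests). *epor* was lower relative to the others by 0.27 in the mean, with overlapping values (exact permutation test, p = 0.2). For *slc4a1a* and *sptb* the mean ratios differed by -0.02 and 0.01. Relative to the erythroid reference list, the difference ranged from -0.35 for *epor* to 0.24 for *add2*, the 2 groups overlapped for all 7 genes, and the adjusted exact permutation p ranged from 0.525 to 1.

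Of 6 marker lists of other blood cells, 4 had summed levels that did not overlap between the same groups. Among all single genes tested, 41.9% did not overlap in either direction, 11.0% were called higher and 8.76% lower. The 7 thrombocyte markers summed to between 1195 and 1403 CPM in mutants and between 596 and 652 CPM in wild type, and 4 of the 7 were called higher. Most of this sum came from *f13a1b*, with 38389, 26657 and 31205 counts in the mutants against 12485, 14513 and 14225 in the siblings. The groups overlapped for *fli1a*, *gp1bb* and *gp9*. The 6 matched neutrophil markers of 8 summed to 36809 to 46207 CPM in mutants and 19933 to 33927 CPM in wild type, with 1 called higher. In CPM, *mpx* and *lyz* did not overlap between the groups, while *npsn*, *mmp9*, *cpa5* and *cebpa* did. Mutant replicate 1 had 287009 counts of *mmp9*, against 68889 and 71878 in mutant replicates 2 and 3. The 7 matched B cell markers of 8 took 127 to 182 CPM in mutants and 386 to 659 CPM in wild type, and 6 were called lower. The 8 T cell markers took 20.2 to 29.7 CPM and 63.7 to 65.4 CPM, with 3 called lower. The sums overlapped for the 7 matched macrophage markers of 8, at 2186 to 2451 CPM in mutants and 1964 to 2250 CPM in wild type with 2 called higher. Most of this sum came from *cd74a* and *cd74b*, which the paper also reports as high in B cells. Single markers differed: *marco* had 5629, 8530 and 9696 counts in the mutants against 3469, 2064 and 4153 in the siblings. *mpeg1.1* overlapped, with 1474, 1784 and 1614 against 1619, 1876 and 2160. The sums also overlapped for the 6 haematopoietic stem cell marker genes, at 327 to 385 CPM and 382 to 404 CPM with 1 called higher. Their list held 7 names, all matched, of which *myb* and *cmyb* are the same gene. Outside blood, the 6 matched kidney tubule markers of 8 summed to 9.76 to 22.6 CPM in mutants and 4.81 to 8.96 CPM in wild type, and the 7 liver markers, which overlapped, to at most 20.1 CPM. The part of these lists in the levels of the membrane genes was not tested.

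The list of other membrane skeleton and transport genes held 20 names, of which 14 were matched and 13 tested. Of these, 3 were called higher and 1 lower, beside 11.0% and 8.76% of all genes tested, and the median log2 ratio was 0.09. *gypc*, for glycophorin C, which in mammals binds protein 4.1, had 984, 1093 and 960 counts in the mutants against 456, 576 and 466 in the siblings, a log2 ratio of 1.12 (SE 0.13, adjusted p = 0.00109 in edgeR). Unlike the 7 genes above, *gypc* was not lowest in wild-type replicate 5. *kel*, whose human counterpart carries the Kell blood group, rose by 1.11 (SE 0.29, adjusted p = 0.0308). Without mutant replicate 1, 2 or 3 or wild-type replicate 4 its estimate was 1.19, 1.17, 0.98 and 1.17, and the adjusted p of 0.056 to 0.097 missed the threshold. The glucose transporter gene *slc2a1b* rose by 0.81 (SE 0.14, adjusted p = 0.0058). The abundant red cell carbonic anhydrase *cahz* was at 2326 ± 279 CPM in the mutants against 1288 ± 567 CPM in the siblings (mean ± SD of 3). Its log2 ratio of 0.85 passed with DESeq2 (adjusted p = 0.00919) and not with edgeR (adjusted p = 0.0728). In edgeR the adjusted p of *cahz* was 0.00705 without wild-type replicate 4 and 0.183 without mutant replicate 1. The tropomyosin gene *tpm3* was at 554 ± 20 and 574 ± 34.8 CPM, with a log2 ratio of -0.05 (95% interval -0.28 to 0.18).

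The paralogue of *epb41b* gave the opposite sign. *epb41a* (ENSDARG00000099283), the other zebrafish copy of the *epb41b* gene, fell in mutants, with 177, 308 and 196 counts against 538, 848 and 794 in wild type. This was a log2 ratio of -1.57 (SE 0.26, adjusted p = 0.00509 in edgeR), and it passed the threshold with each library left out. Its highest wild-type library was replicate 5, in which *epb41b* was lowest. Which cells gave the reads of *epb41a* was not tested. Its level was 6.27 ± 2.05 CPM in the mutants against 18.6 ± 4.11 CPM in the siblings (mean ± SD of 3).

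Of 44 names of relatives of the 8 genes, some of them shared with the skeleton list, 30 were matched and 22 tested, with 3 called higher and 5 lower, beside 11.0% and 8.76% of all genes tested (median log2 fold change -0.11). The ankyrin gene *ank3a* fell most, with 304, 195 and 127 counts in the mutants against 1298, 3331 and 2186 in the siblings, a log2 ratio of -3.36 (SE 0.40, adjusted p = 0.001 in edgeR). Its copy *ank3b* had a log2 ratio of -0.50 (adjusted p = 0.0588 in edgeR and 0.0205 with DESeq2). In edgeR *ank3b* passed with upper quartile scaling (adjusted p = 0.0449) and with library size only (0.0475). The beta-spectrin relative *sptbn4b* fell by 1.93 on the log2 scale (adjusted p = 0.0152). Its estimate was -1.64 without mutant replicate 1 and -1.89 without mutant replicate 3, where the adjusted p of 0.05004 and 0.0588 missed the threshold. The alpha-spectrin gene *sptan1* was at 598 ± 28 CPM in the mutants against 492 ± 45.1 CPM in the siblings (mean ± SD of 3; log2 fold change 0.28, adjusted p = 0.112). *epb41l5*, a protein 4.1 relative of epithelia, rose by 2.32 (SE 0.23, adjusted p = 0.000393), and *epb41l3b* had a log2 ratio of -0.57 (adjusted p = 0.0202). Without mutant replicate 1 or 3 or wild-type replicate 4 or 5 the estimate for *epb41l3b* was -0.54, -0.53, -0.52 and -0.52, with an adjusted p of 0.0584 to 0.0829.

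Cytokine receptors of the same class as *epor* were on this list too. *mpl*, the thrombopoietin receptor gene of thrombocytes, rose from 11.7 ± 1.33 CPM in wild type to 21.8 ± 1 CPM in mutants (mean ± SD of 3), a log2 ratio of 0.90 (SE 0.12, adjusted p = 0.00196 in edgeR). The growth hormone receptor gene *ghrb* rose by 1.04 (adjusted p = 0.0315). Without mutant replicate 1 or 3 or wild-type replicate 5 or 6 its estimate was 1.09, 0.81, 0.90 and 0.90, and the adjusted p of 0.0778 to 0.101 missed the threshold. *csf3r*, the granulocyte colony-stimulating factor receptor gene of neutrophils, fell from 341 ± 53.1 to 218 ± 14.5 CPM (log2 fold change -0.64, adjusted p = 0.0136; without mutant replicate 1, -0.59 and 0.0615). Whether the change of *epor* differed from that of these receptors was not tested.

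Around the receptor, 26 names of ligands, kinases, targets and inhibitors of the erythropoietin pathway gave 19 matched genes, all tested, of which 3 were called higher and 1 lower (median log2 fold change 0.11). This share of 4 of 19 was near the 19.8% called in either direction among all genes tested. The ligand genes were near the floor, with 8 to 24 counts per library for *epoa* and 13 to 42 for *epob*, and neither passed the threshold (adjusted p = 0.227 and 0.169 in edgeR). Of the relays, the kinase gene *jak2a* was at 328 ± 34.1 CPM in the mutants against 303 ± 64.2 CPM in the siblings (mean ± SD of 3; log2 fold change 0.11, turning to -0.05 without wild-type replicate 5), *stat5a* had a log2 ratio of -0.16 (adjusted p = 0.524) and *stat5b* one of -0.26 (adjusted p = 0.128).

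The 4 genes past the threshold are *cish*, *cishb*, *gab1* and *bcl2l1*. *cish*, a feedback inhibitor of cytokine signalling that Stat5 induces in mammals, had 1079, 828 and 958 counts in the mutants against 294, 249 and 357 in the siblings. Its groups stood far apart, with a log2 ratio of 1.77 (SE 0.15, adjusted p = 0.00021 in edgeR). The related *cishb* had 231, 267 and 301 counts in the mutants against 63, 41 and 62 in the siblings, a log2 ratio of 2.37 (SE 0.24, adjusted p = 0.000436). The adaptor gene *gab1* rose by 1.26 (SE 0.12, adjusted p = 0.000348), at 60.1 ± 1.33 CPM in the mutants against 25 ± 3.67 CPM in the siblings (mean ± SD of 3). The survival gene *bcl2l1*, a target of the pathway in mammals, fell by 0.65 on the log2 scale (SE 0.13, adjusted p = 0.00996). *cish*, *cishb*, *gab1* and *bcl2l1* all passed the threshold with each library left out. The inhibitor gene *socs3b* had a log2 ratio of 0.58 and passed with DESeq2 (adjusted p = 0.015) but not with edgeR (adjusted p = 0.0623). With no low-count filter *socs3b* passed in edgeR too (adjusted p = 0.0489). Its adjusted p in edgeR was 0.0465 without wild-type replicate 4 and 0.189 without mutant replicate 1. The kinase gene *pim1* had a log2 ratio of 0.10 (adjusted p = 0.702 in edgeR), below 0 without mutant replicate 1 or wild-type replicate 6.

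**Figure D4:**
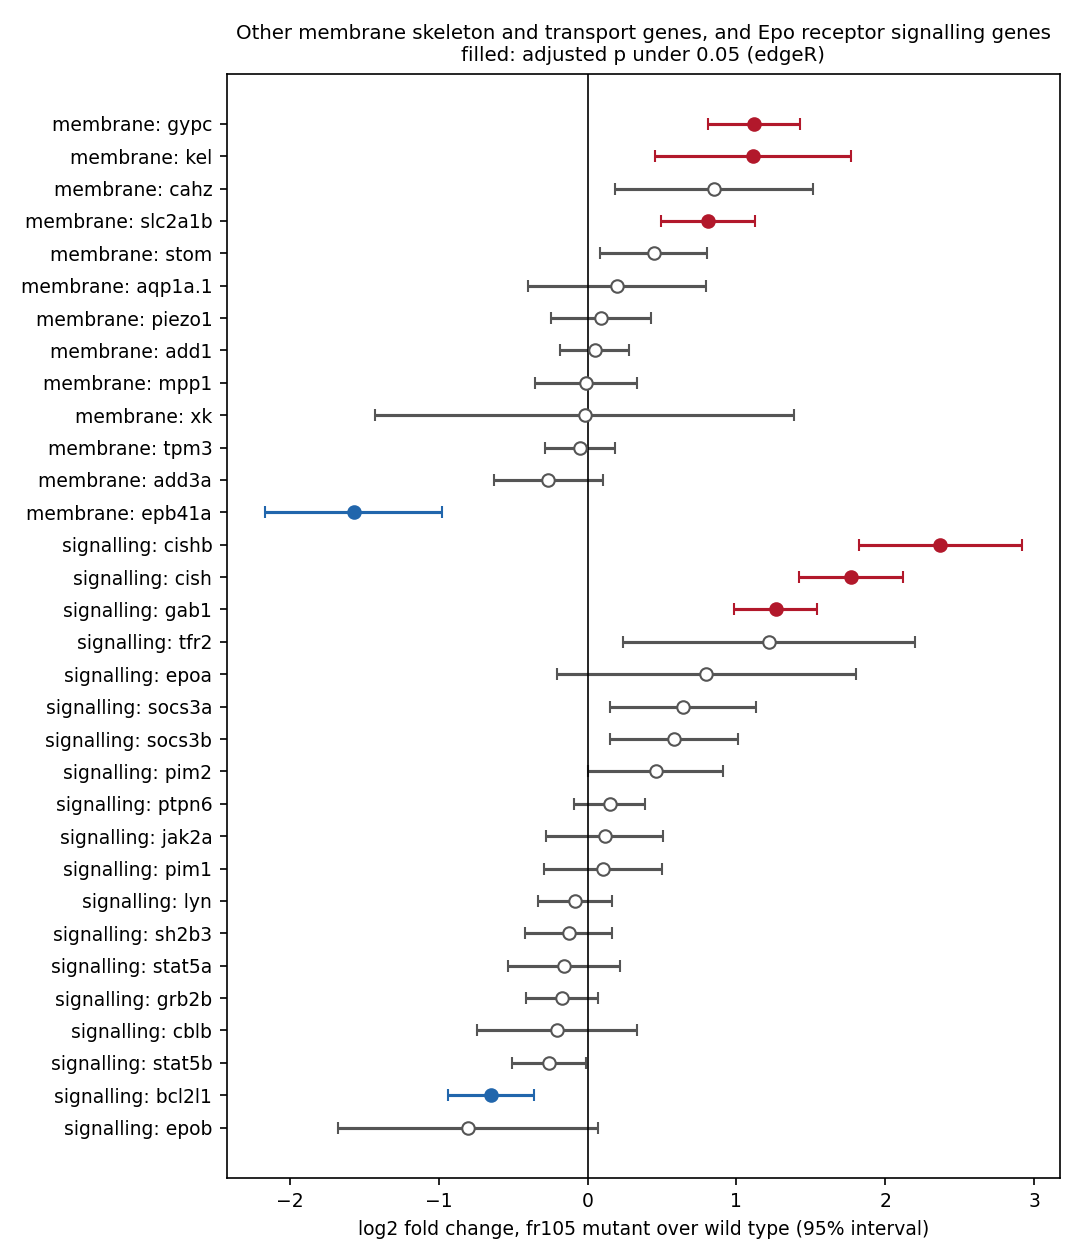
Log2 fold change of fr105 mutants over wild type with its 95% interval for 13 other membrane genes and 19 genes of erythropoietin receptor signalling; filled points have an adjusted p under 0.05 in edgeR's test. The highest point is *cishb* at 2.37 and the lowest is *epb41a* at -1.57, and 4 genes of each list have filled points.

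Among 8667 genes with a mean of at least 10 CPM, those whose levels over the 6 libraries came closest to the mean profile of the 7 genes were sought by the root mean square difference of centred log2 values. The 5 closest were *si:ch211-130m23.5* (0.06), the gene with the symbol IBA57 (0.06), the erythroid transcription factor gene *klf1* (0.07), *si:dkey-93h22.7* (0.07) and the gene with the symbol SLC10A4 (0.07). *klf1* had 4559, 4508 and 5560 counts in the mutants against 4295, 2250 and 3350 in the siblings, with the order of libraries seen in the membrane genes. Its log2 ratio was 0.67 (adjusted p = 0.0759 in edgeR and 0.0215 with DESeq2). With 1 library left out its adjusted p in edgeR ran from 0.0207, without wild-type replicate 4, to 0.211. Of the 7 genes themselves, *sptb* was nearest to the mean profile, with a difference of 0.04, and *epor* and *add2* were farthest from it, at 0.19 and 0.18.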

How the data were processed

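According to the labels and methods, stranded libraries of poly-A RNA were read from both ends. Alignment by the authors used STAR 2.5.2b-1 and the Ensembl Zv10 annotation (GRCz10), counting used featureCounts 1.6.0.1, and the deposited values are raw counts per gene, with no normalization. The methods name default settings for the tools except where stated, under which featureCounts does not use strand, so reads of a gene and an overlapping antisense gene cannot be told apart. Of the genes with 1 to 4 counts, 78% to 79.9% had an even count. Whether both reads of a pair were counted was not tested, so the counts given here may exceed the number of RNA fragments read.

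Groups follow the genotype in the sample titles. Counts were analysed with edgeR 4.0.16 in R 4.3.3 (TMM, filterByExpr with a minimum count of 10 and a minimum total of 15, quasi-likelihood F test, two-sided, Benjamini-Hochberg adjustment over all genes tested, threshold 0.05). The SE of a log2 fold change is its size over the root of F, and 95% intervals use the moderated degrees of freedom. CPM are TMM scaled. Exact permutation tests used log2(CPM + 0.5) for single genes, and log2 counts with 0.5 added for ratios within a library. For ratios, the other members are the 6 others matched. DESeq2 1.42.0 was an alternative. The fit was tested on simulated data with a log2 change of 1.5 planted in 200 genes. It called 151 of these 200 and 12 unchanged genes. Changes as small as those estimated for the 7 members were not simulated. Other steps used SciPy 1.17.1, pandas 2.3.3 and Python 3.11.15.

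Symbols came from a table of gene names, read without regard to case where needed, and from the supplementary tables of the study (IDs and names only). The 8 members and the lists were chosen with earlier results of these data known. Genes of the related lists are named where they passed the threshold, with the 2 most abundant that did not; *epoa*, *epob*, *jak2a*, *stat5a*, *stat5b*, *tfr2*, *rhd* and a few erythroid genes are named for their role. No library pair agreed within sampling noise. Nothing says that siblings of a genotype came from separate clutches, so p-values cover only the spread between these fish. Precision is given by the standard errors, since 3 against 3 allow no exact p below 0.1. Scaling alternatives, filters, a robust fit, a stricter threshold and each library left out in turn were tried. Sequences and lengths of the genes were not analysed here.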

Additional observations from a re-analysis of the deposited data

How the results depend on the processing

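No paired analysis was possible because the mutant and wild-type replicates share no numbers. All 7 membrane and receptor genes kept a positive log2 fold change under every alternative run. Against 0 calls among them, beside 11.0% of all genes tested called higher, DESeq2 gave 2, beside 11.7%. These were *epb41b* (log2 fold change 0.70) and *add2* (0.85). No low-count filter gave 1 (*add2*, 0.86, adjusted p = 0.037 in edgeR), where 1849 of all genes were called higher. With 1 library left out there were 0 to 4, beside 6.85% to 9.37% of all genes tested called higher. With 1 library left out, the log2 fold change ranged from 0.33 to 0.84 for *slc4a1a*, 0.32 to 0.80 for *sptb*, 0.27 to 0.61 for *rhag*, 0.58 to 1.08 for *add2*, 0.44 to 0.87 for *epb41b*, 0.37 to 0.87 for *dmtn* and 0.17 to 0.48 for *epor*; the lowest values came without wild-type replicate 5 and the highest without wild-type replicate 4. The ratio of *sptb* to the erythroid reference list differed by -0.084, against 0.01 relative to the other members. With 1 library left out, *jak2a* ranged from -0.046 to 0.25 and *pim1* from -0.051 to 0.22.

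Over all genes, 1834 were called higher and 1457 lower. These counts ranged from 1178 to 1595 and from 733 to 1242 with 1 library left out, and were 891 and 508 at an adjusted p under 0.01. That threshold left 1 erythroid reference gene called higher and 2 relatives called lower. With 1 library left out, 2 to 11 of 14 reference genes and 3 to 6 of 19 signalling genes were called higher, beside 6.85% to 9.37% of all genes tested. In these runs 2 to 5 relatives were called lower, beside 733 to 1242 of all genes. DESeq2 called 5 of 19 signalling genes higher, where its background was 11.7%. Depth was not limiting for the 7 genes, each with at least 2221 counts per library, but *epoa* and *epob* had at most 42.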

Other observations

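Some red cell genes did not share the pattern of the membrane genes. The adult alpha globin gene *hbaa2* had 95917, 58160 and 115928 counts in the mutants against 284835, 106335 and 113448 in the siblings, a log2 fold change of -0.81 (SE 0.42, adjusted p = 0.205 in edgeR), whereas *hbaa1* had 653758, 543373 and 643230 counts in the mutants against 488886, 225903 and 379113 in the siblings (0.85, adjusted p = 0.0529; 0.00363 with DESeq2). Wild-type replicate 4 held the high *hbaa2* count; without it the log2 fold change was -0.17. How counting split reads between near-identical globin genes is uncertain. *tfr2*, which in mammals binds the erythropoietin receptor and senses iron, had 1182, 1210 and 572 counts in the mutants against 744, 352 and 249 in the siblings, and was not highest in mutant replicate 3. Its log2 fold change was 1.22 (adjusted p = 0.0797 in edgeR). With 1 library left out the adjusted p ran from 0.0131, without wild-type replicate 4, to 0.202.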
